A study of Homo sapiens with 6 samples.

Results

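The 14-3-3 genes of RKO cells, a human colorectal cancer cell line, were examined after knockdown of ANP32B. The 7 genes are YWHAB, YWHAE, YWHAG, YWHAH, YWHAQ, YWHAZ and SFN, which encode the beta, epsilon, gamma, eta, theta, zeta and sigma proteins, and they were found by gene symbol among the 61204 rows of the RNA-seq tables. The family was singled out because YWHAZ was known to be lower and some paralogs higher in siANP32B than in siCtrl samples, so the differences of the 7 genes between these groups are given as a description: intervals and threshold counts for them describe the values and support nothing. All 7 passed the filter on low values, an average of 1 FPKM or more over the samples (FPKM is a fragment number scaled to transcript length and sequencing depth), and stood among the 13945 genes that were compared.

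The 14-3-3 proteins are small acidic adaptors that form dimers and bind other proteins at phosphorylated serine or threonine residues. By doing so they hold client proteins in the cytoplasm, mask their docking surfaces or stabilise them, and the clients include cell cycle phosphatases, pro-apoptotic proteins, RAF kinases and the transcriptional coactivators YAP and TAZ. Most members form both homodimers and heterodimers, whereas sigma (SFN, stratifin) mainly pairs with itself and is known in colorectal cells as a protein of the G2 checkpoint.

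The study compared 3 samples of RKO cells transfected with siANP32B, labelled as ANP32B knockdown, and 3 samples transfected with siCtrl, labelled as ANP32B wild type. ANP32B encodes an acidic leucine-rich nuclear phosphoprotein that chaperones histones. Its level was 72.5, 53.9 and 75.3 FPKM in siANP32B samples 1 to 3, against 429, 466 and 452 FPKM in siCtrl samples 1 to 3, which is 15.0% of the siCtrl mean. RKO is a single cell line, which of the siANP32B sequences these samples received is not stated in the study's text, and no source says that the samples of a group were separate cultures, so the spread between them may be technical.

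Fragment totals, which were inferred from the deposited values, were 14577044 to 16393123 in siANP32B samples and 14304093 to 18987041 in siCtrl samples. The epithelial markers KRT8, KRT18, EPCAM and CDX2 were present in every sample at 10.2 to 45.3 FPKM, while CDH1 and VIL1 were at or near 0 in all of them. The summed level of the 6 epithelial markers was 81.3 to 85.2 FPKM in siANP32B and 77.8 to 85.9 FPKM in siCtrl. The sums of 6 fibroblast markers, 1.28 to 2.30 FPKM in siANP32B and 3.08 to 4.31 FPKM in siCtrl, came mostly from COL1A1, with COL3A1 and DCN at 0 in every sample. Immune and endothelial markers summed to at most 0.21 and 1.02 FPKM in any sample, with PTPRC at 0 throughout. The part of these small sums in the results was not tested.

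The promoters of the genes that stood higher in siANP32B than in siCtrl samples (YWHAG, YWHAE and YWHAB) and of YWHAQ, which stood lower, are shown because they let the members that moved together be compared base by base. Each runs 5′ to 3′ on the strand of the gene (minus for YWHAG, YWHAE and YWHAQ, plus for YWHAB) and covers 250 bases before to 50 bases after the RefSeq start in GRCh38.p14. The windows are chr7:76358942-76359241 for YWHAG, chr17:1400173-1400472 for YWHAE, chr20:44885455-44885754 for YWHAB and chr2:9630948-9631247 for YWHAQ. Capitals mark matches on either strand to the letters of a cAMP response element, a GC box, a CCAAT box, an ETS motif, an E-box or a TATA box, each spelled out with its count.
YWHAG: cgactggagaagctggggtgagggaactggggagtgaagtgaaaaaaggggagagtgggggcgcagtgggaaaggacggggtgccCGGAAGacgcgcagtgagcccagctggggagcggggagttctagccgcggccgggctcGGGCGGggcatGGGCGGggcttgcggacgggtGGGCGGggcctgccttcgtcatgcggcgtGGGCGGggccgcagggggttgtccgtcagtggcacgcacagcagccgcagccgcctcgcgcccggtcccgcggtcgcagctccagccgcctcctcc
YWHAE: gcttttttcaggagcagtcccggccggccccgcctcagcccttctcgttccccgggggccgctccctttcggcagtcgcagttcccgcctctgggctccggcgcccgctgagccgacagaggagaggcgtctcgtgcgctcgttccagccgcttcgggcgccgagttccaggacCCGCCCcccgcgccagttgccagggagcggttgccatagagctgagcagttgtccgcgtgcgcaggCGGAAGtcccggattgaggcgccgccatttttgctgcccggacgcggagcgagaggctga
YWHAB: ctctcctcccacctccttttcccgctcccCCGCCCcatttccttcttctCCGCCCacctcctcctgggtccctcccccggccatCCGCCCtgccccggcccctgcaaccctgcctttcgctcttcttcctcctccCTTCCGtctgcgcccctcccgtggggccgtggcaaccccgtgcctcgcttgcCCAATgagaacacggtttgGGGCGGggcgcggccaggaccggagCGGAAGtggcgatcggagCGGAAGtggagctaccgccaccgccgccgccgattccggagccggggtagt
YWHAQ: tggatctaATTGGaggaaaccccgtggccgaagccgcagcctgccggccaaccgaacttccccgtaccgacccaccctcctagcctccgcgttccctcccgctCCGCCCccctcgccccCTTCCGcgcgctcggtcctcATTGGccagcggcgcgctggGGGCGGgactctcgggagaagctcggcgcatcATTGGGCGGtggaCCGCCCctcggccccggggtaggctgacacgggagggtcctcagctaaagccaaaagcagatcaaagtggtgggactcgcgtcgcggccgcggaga

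Of the 7 genes, 6 had an entry in the RefSeq promoter table. YWHAZ had none, so its promoter was not searched. These 6 promoters were rich in G and C, at 63.7% in SFN and 69.7% to 73.7% in the others, against a median of 58.7% over 35116 promoters. A GC box, the letters GGGCGG that SP1 is known to bind, was found in all 6, with 4 each in YWHAG, YWHAB and YWHAQ, 3 in YWHAH, 2 in SFN and 1 in YWHAE, and in 45.0% of all promoters. ETS motifs, searched as CGGAAG, were found 3 times in YWHAB and 1 time each in YWHAG, YWHAE and YWHAQ, and in 19.5% of all promoters. YWHAQ held 3 CCAAT boxes, searched by those 5 letters, 1 of which overlaps a GC box, and YWHAB and SFN held 1 each, against 34.6% of all promoters with at least 1. Of the 6, only YWHAH held a cAMP response element (TGACGTCA), which 1.85% of all promoters have. YWHAH was also the only 1 of the 6 whose window held a TATA box (TATAAA), beside 11.5% of all promoters. An E-box (CACGTG), found in 7.26% of all promoters, was in none of the 6. The motifs shared by YWHAG, YWHAE and YWHAB, a GC box and an ETS motif, were also in YWHAQ. These matches describe letters and not bound sites. The shares over all promoters were not matched for G and C content.

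YWHAZ, the zeta gene and the most abundant member in control cells, was lower in siANP32B than in siCtrl samples. The gene (ENSG00000164924, chromosome 8, 100916525 to 100953388, minus strand; coordinates here and for the other members are from GRCh38) was the member with the largest difference. Its level was 420, 377 and 400 FPKM in siANP32B samples 1 to 3, against 765, 827 and 773 FPKM in siCtrl samples 1 to 3. The groups lay far apart, and the highest siANP32B sample was well under the lowest siCtrl sample. The mean was 399 ± 21.4 FPKM in siANP32B and 788 ± 34.1 FPKM in siCtrl (mean ± S.D., n = 3 each), which is 50.6% of the siCtrl level. On the log2(FPKM + 1) scale the fold change was -0.98 (SE 0.05, 95% interval -1.09 to -0.87). YWHAZ ranked between 82 and 89 among all genes by FPKM in the siCtrl samples, and between 189 and 213 in the siANP32B samples. As in any bulk sample, fewer cells expressing a gene and less RNA per cell cannot be told apart.

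YWHAQ, the theta gene (ENSG00000134308, chromosome 2, 9583972 to 9631014, minus strand), was also lower in siANP32B, by a smaller margin. Its level was 281, 258 and 279 FPKM in siANP32B samples 1 to 3, against 334, 344 and 347 FPKM in siCtrl samples 1 to 3. The groups did not overlap, and siANP32B sample 2, which was also the lowest sample for YWHAZ, lay farthest below. The means were 272 ± 12.8 FPKM in siANP32B and 342 ± 6.73 FPKM in siCtrl, or 79.7% of siCtrl, with a log2 fold change of -0.33 (SE 0.04, 95% interval -0.42 to -0.23).

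Higher levels in siANP32B than in siCtrl were seen for YWHAG, YWHAE and YWHAB. YWHAG, the gamma gene (ENSG00000170027, chromosome 7, 76326794 to 76359031, minus strand), had the largest relative difference of the 3, with 115, 117 and 105 FPKM in siANP32B samples 1 to 3, against 75.4, 69.1 and 73.2 FPKM in siCtrl samples 1 to 3. Every siANP32B sample exceeded every siCtrl sample by a margin larger than the range within either group. The means were 113 ± 6.28 FPKM in siANP32B and 72.6 ± 3.19 FPKM in siCtrl, or 155% of siCtrl, with a log2 fold change of 0.62 (SE 0.05, 95% interval 0.50 to 0.75).

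YWHAE, the epsilon gene (ENSG00000108953, chromosome 17, 1344272 to 1400378, minus strand), had the largest increase in FPKM. It had 478, 496 and 479 FPKM in siANP32B samples 1 to 3, against 368, 394 and 372 FPKM in siCtrl samples 1 to 3. In both groups sample 2 was the highest, and the groups stayed clear of each other. The means were 485 ± 9.82 FPKM in siANP32B and 378 ± 14.005 FPKM in siCtrl, or 128% of siCtrl, with a log2 fold change of 0.36 (SE 0.04, 95% interval 0.27 to 0.45).

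YWHAB, the beta gene (ENSG00000166913, chromosome 20, 44885676 to 44908532, plus strand), had 222, 221 and 221 FPKM in siANP32B samples 1 to 3, against 174, 195 and 182 FPKM in siCtrl samples 1 to 3. The siANP32B samples were nearly identical, whereas the siCtrl samples were spread more widely and all lay lower. The means were 222 ± 0.443 FPKM in siANP32B and 184 ± 10.4 FPKM in siCtrl, or 121% of siCtrl, with a log2 fold change of 0.27 (SE 0.05, 95% interval 0.17 to 0.37).

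The remaining members, YWHAH and SFN, overlapped between the groups. YWHAH, the eta gene (ENSG00000128245, chromosome 22, 31944461 to 31957603, plus strand), had 69.1, 72.5 and 73.2 FPKM in siANP32B samples 1 to 3, against 67.2, 69.3 and 72.4 FPKM in siCtrl samples 1 to 3. Its mean was 71.6 ± 2.20 FPKM in siANP32B and 69.7 ± 2.61 FPKM in siCtrl, a log2 fold change of 0.04 with a 95% interval of -0.07 to 0.15. As a description, this fold change was smaller in size than those of YWHAB and YWHAQ.

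SFN, the sigma gene (ENSG00000175793, chromosome 1, 26863138 to 26864457, plus strand), was the least abundant member, with 35.4, 36.5 and 39.8 FPKM in siANP32B samples 1 to 3, against 35.7, 41.0 and 43.3 FPKM in siCtrl samples 1 to 3. The means were 37.2 ± 2.28 FPKM in siANP32B and 40.0 ± 3.91 FPKM in siCtrl, a log2 fold change of -0.10 with a 95% interval of -0.28 to 0.08. The sign was not stable, being -0.18 without siCtrl sample 1 and 0.06 with that sample as the only control. SFN also had the fewest fragments, at least 758 in each sample, which corresponds to a counting error of at most 3.63%.

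**Figure D1:**
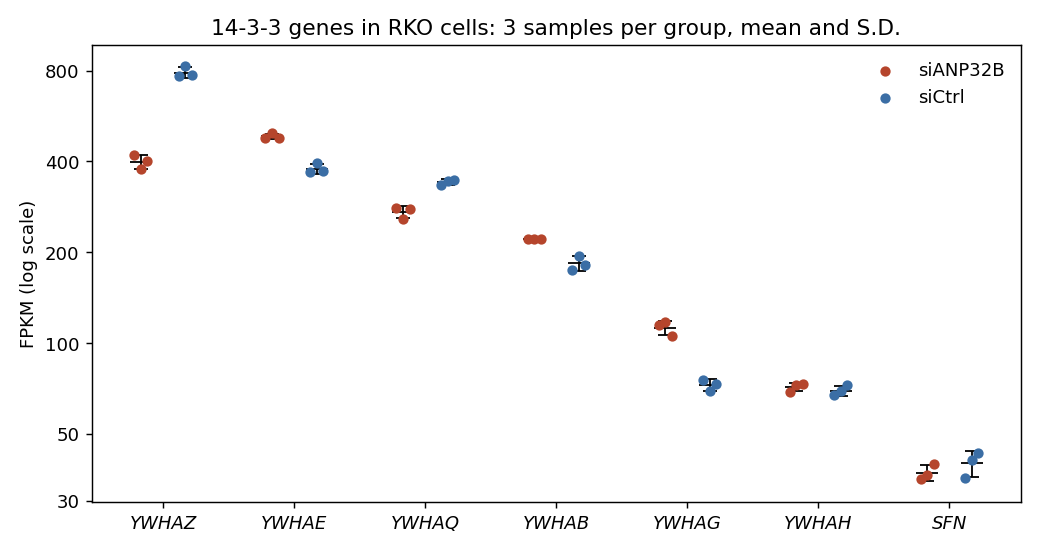
FPKM of the 7 genes (vertical axis, log scale) in each siANP32B sample and each siCtrl sample (points), with the mean and S.D. of 3 samples as black bars. YWHAZ lies at 377 to 420 FPKM in siANP32B and 765 to 827 FPKM in siCtrl, YWHAQ is also lower, YWHAE, YWHAB and YWHAG are higher, and YWHAH and SFN overlap.

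At a Benjamini-Hochberg adjusted p under 0.05 in limma, 3 of the 7 members were called higher and 2 lower, beside 14.6% of all 13945 genes called higher (2031), 24.6% called lower (3437) and 39.2% called in either direction. Median-of-ratios scaling turned the split over all genes to 2690 higher and 2577 lower. The groups did not overlap for 5 members, as for 51.1% of all genes compared. Since the members were chosen on this contrast, nothing is read from these counts. Over 13 alternative settings the log2 fold changes were -1.02 to -0.91 for YWHAZ, -0.35 to -0.25 for YWHAQ, 0.57 to 0.70 for YWHAG, 0.34 to 0.43 for YWHAE and 0.24 to 0.35 for YWHAB. They were 0.02 to 0.11 for YWHAH and -0.18 to 0.06 for SFN.

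**Figure D2:**
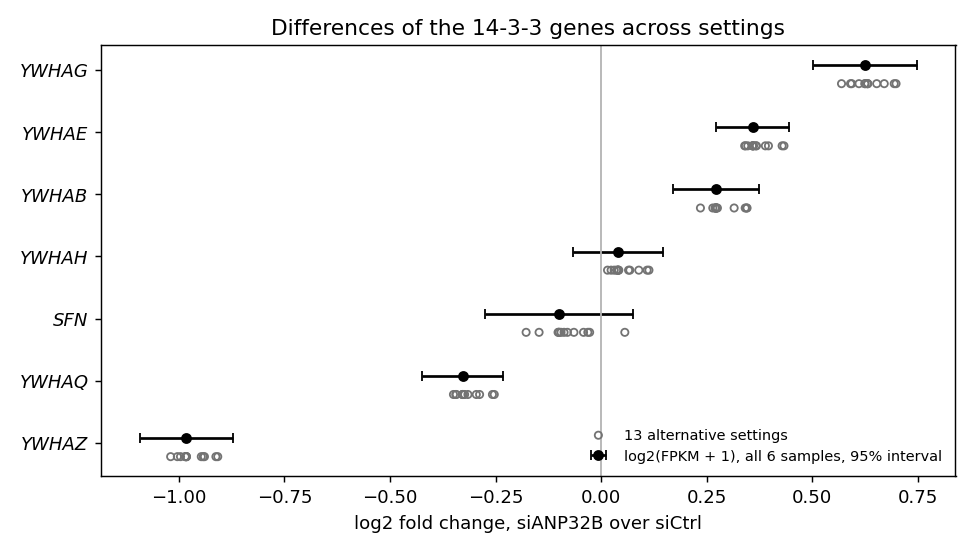
Log2 fold change of each gene, siANP32B over siCtrl (horizontal axis), as the estimate with its 95% interval (black) and under 13 alternative settings (open circles). The settings give 0.57 to 0.70 for YWHAG and -1.02 to -0.91 for YWHAZ, and those of SFN lie on both sides of 0.

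FPKM is per length, so levels of different genes were added up. Sums, shares and the order of genes by level rest on the gene lengths behind the values, which are not given. Over the 7 genes, 14-3-3 transcripts amounted to 1620, 1578 and 1598 FPKM in siANP32B samples 1 to 3, against 1820, 1939 and 1862 FPKM in siCtrl samples 1 to 3. Every siANP32B sum was under every siCtrl sum. The mean sum was 1599 ± 20.9 FPKM in siANP32B and 1874 ± 60.5 FPKM in siCtrl, or 85.3% of siCtrl. Without YWHAZ the order turned, with 1200 ± 1.83 FPKM in siANP32B and 1085 ± 28.6 FPKM in siCtrl, or 111% of siCtrl in the deposited values.

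YWHAE, YWHAB and YWHAG together had 184.7 FPKM more in siANP32B than in siCtrl, and the sum of YWHAZ and YWHAQ fell by 459.0 FPKM. In the deposited values the 3 higher members thus amounted to 40.2% of what the 2 lower members lost. This percentage depends on the scaling. Under median-of-ratios scaling the log2 fold changes were -0.91 for YWHAZ and -0.26 for YWHAQ. They were 0.69 for YWHAG, 0.43 for YWHAE and 0.34 for YWHAB, so the falls were smaller and the rises larger. YWHAH and SFN together differed by -0.84 FPKM.

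The make-up of the 14-3-3 pool differed accordingly. YWHAZ made up 24.9 ± 1.01% of the summed FPKM in siANP32B and 42.1 ± 0.59% in siCtrl (mean ± S.D., n = 3 each). YWHAE made up 30.3 ± 0.98% in siANP32B and 20.2 ± 0.18% in siCtrl, so epsilon replaced zeta as the leading transcript by FPKM. The share of YWHAB was 13.9 ± 0.16% in siANP32B and 9.79 ± 0.24% in siCtrl, and that of YWHAG was 7.04 ± 0.42% in siANP32B and 3.88 ± 0.29% in siCtrl.

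YWHAQ differed less in share than in level, with 17.0 ± 0.62% in siANP32B and 18.3 ± 0.48% in siCtrl. YWHAH had 4.48 ± 0.19% in siANP32B and 3.72 ± 0.16% in siCtrl, although its level overlapped between the groups, because the sum was smaller in siANP32B. SFN stayed the smallest part, with 2.33 ± 0.15% in siANP32B and 2.14 ± 0.18% in siCtrl.

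**Figure D3:**
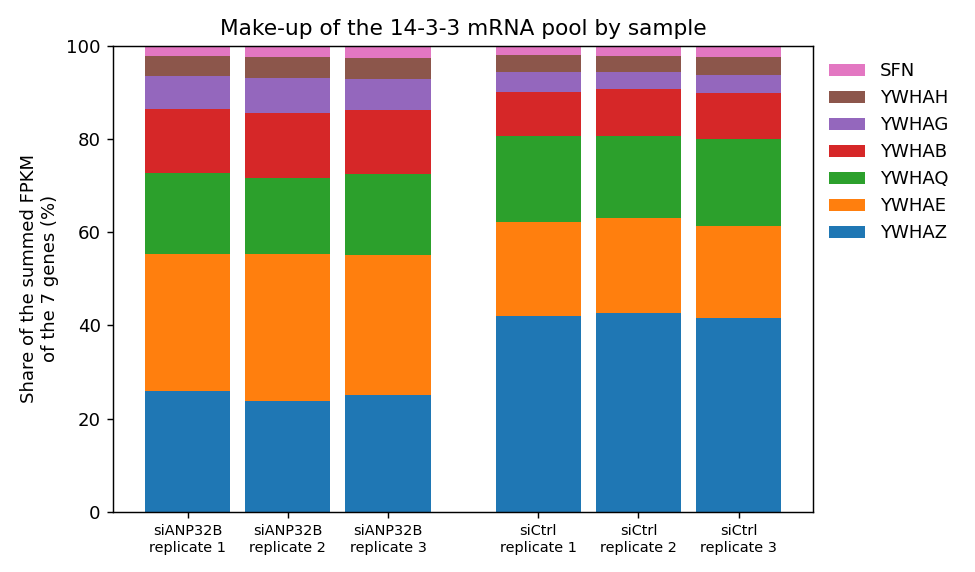
Share of each gene in the summed FPKM of the 7 genes (vertical axis, percent) in each of the 3 siANP32B and 3 siCtrl samples (stacked bars). YWHAZ takes 24.9% on average in siANP32B and 42.1% in siCtrl, and YWHAE takes 30.3% in siANP32B and 20.2% in siCtrl.

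By level, the order in siANP32B cells was YWHAE, YWHAZ, YWHAQ, YWHAB, YWHAG, YWHAH and SFN, and no neighbours in that order overlapped between samples. In siCtrl cells the order was YWHAZ, YWHAE, YWHAQ, YWHAB, YWHAG, YWHAH and SFN, and there the samples of YWHAG and YWHAH overlapped. The ratio of YWHAE to YWHAZ was 1.14, 1.32 and 1.20 in siANP32B samples 1 to 3, against 0.481, 0.476 and 0.481 in siCtrl samples 1 to 3. YWHAG and YWHAH, whose proteins are the most alike of the family beside beta and zeta, stood at a ratio of 1.66, 1.62 and 1.44 in siANP32B samples 1 to 3, against 1.12, 0.998 and 1.01 in siCtrl samples 1 to 3.

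The encoded proteins have 245 to 255 residues in the longest coding transcripts of GENCODE 29. Identity was highest between beta and zeta and between gamma and eta, at 86.6% for each pair, and lowest between epsilon and sigma, at 58.8%. In these pairs the genes did not go the same way, since YWHAB was higher and YWHAZ lower in siANP32B, and YWHAG was higher while YWHAH overlapped. The 3 higher members were not each other's closest relatives, with identities of 75.2% for beta and gamma, 63.7% for beta and epsilon and 61.1% for gamma and epsilon. Zeta and theta, the 2 lower members, shared 79.6%.

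Coding sequences were less alike than proteins at the top of the range, with at most 78.5% identity, for YWHAG and YWHAH. The 3′ untranslated region of these transcripts is 4168 bases long in YWHAZ, 2783 in YWHAG, 2094 in YWHAB, 1314 in YWHAQ, 1175 in YWHAE, 811 in YWHAH and 498 in SFN, against a median of 1007 over the genes compared. Where transcripts tied for the longest coding sequence, the one with the longest 3′ untranslated region was taken. Which transcripts RKO cells express was not examined.

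Processed copies of these genes are numerous, and reads may be shared with them. The tables held 24 pseudogene rows named after a member, of which 12 were at 0 in all 6 samples, and none exceeded 1.88 FPKM in any sample. The 9 pseudogenes of YWHAZ summed to 4.202, 3.65 and 3.81 FPKM in siANP32B samples 1 to 3, against 4.91, 5.12 and 4.91 FPKM in siCtrl samples 1 to 3. Such levels are small beside those of YWHAZ itself.

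The genes next to the members, which the choice of the family did not use, were compared as well. For each member the nearest protein-coding gene of at least 1 FPKM was taken on each side within 500 kb, which gave 14 genes. The closest to YWHAZ were PABPC1, the cytoplasmic poly(A)-binding protein, 194 kb away, and ZNF706, 224 kb away. PABPC1 was 3067 ± 107 FPKM in siANP32B and 2357 ± 78.7 FPKM in siCtrl, a log2 fold change of 0.38 ± 0.04 (SE, limma, Benjamini-Hochberg adjusted p = 0.000123), opposite in sign to YWHAZ. ZNF706 was 172 ± 8.18 FPKM in siANP32B and 192 ± 8.24 FPKM in siCtrl (log2 fold change -0.16, limma adjusted p = 0.0305), a call lost when siANP32B sample 2 or 3 or siCtrl sample 2 or 3 was left out (limma adjusted p = 0.0827, 0.099, 0.076 and 0.109).

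PABPC1L, 1.53 kb from YWHAB, was 81.4 ± 4.66 FPKM in siANP32B and 98.7 ± 5.96 FPKM in siCtrl (log2 fold change -0.28, limma adjusted p = 0.00556), again opposite in sign to its neighbour. ZDHHC18, a palmitoyltransferase gene 5.54 kb from SFN, was 36.2 ± 3.64 FPKM in siANP32B and 23.3 ± 0.751 FPKM in siCtrl (log2 fold change 0.61, limma adjusted p = 0.000277). The calls of ADA, near YWHAB (log2 fold change 0.29, limma adjusted p = 0.0282), and ABR, near YWHAE (-0.21, limma adjusted p = 0.0488), were lost under 6 and 9 of the 13 alternative settings. Among these were, for ADA, leaving out siANP32B sample 1 or 3 or siCtrl sample 2 or 3, with limma adjusted p of 0.0831, 0.0954, 0.065 and 0.0865, and for ABR, leaving out any single sample other than siCtrl sample 2, with limma adjusted p of 0.0906 to 0.16. The other 8 neighbours, among them both neighbours of YWHAG, YWHAH and YWHAQ, did not pass the threshold, with log2 fold changes of -0.17 to 0.15. A neighbour of YWHAG passed under 4 of the 13 alternative settings, a neighbour of YWHAH under 3 and a neighbour of YWHAQ under 2. Over all genes compared, 39.2% were called in either direction, so nothing particular to these loci is read from the calls.

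Genes encoding 14-3-3 clients and the enzymes around them were compared next, from 8 lists of 83 genes in all. Of these, 78 were compared, 7 rose and 23 fell in siANP32B relative to siCtrl, and 48 did not pass the threshold (limma, adjusted over all 13945 genes). That is 8.97% higher and 29.5% lower, beside 14.6% and 24.6% of all genes, and the median log2 fold change was -0.08, beside -0.06 over all genes. The lists were chosen with earlier results of these data known, so the calls in them are a description.

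Of the 7 cell cycle clients, 6 were lower in siANP32B and none was higher, with a median log2 fold change of -0.50. CDC25A, CDC25B and CDC25C encode the phosphatases that activate cyclin-dependent kinases and that 14-3-3 proteins hold inactive, and WEE1 encodes the opposing kinase. CDC25A was 23.3, 23.6 and 24.3 FPKM in siANP32B samples 1 to 3, against 46.2, 44.9 and 44.4 FPKM in siCtrl samples 1 to 3, a log2 fold change of -0.90 ± 0.05 (SE, limma adjusted p = 4.9e-06). The other 3 fell by 0.78 for CDC25C, 0.63 for WEE1 and 0.50 for CDC25B on the log2 scale, with limma adjusted p of 0.000893, 2.5e-05 and 9.6e-05. The phosphatase genes and the gene of the kinase that counters them thus fell together.

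Clients in transcription showed the single largest change of the lists, in WWTR1, which encodes the coactivator TAZ that 14-3-3 proteins keep in the cytoplasm. WWTR1 was 24.6, 21.5 and 25.3 FPKM in siANP32B samples 1 to 3, against 71.1, 70.4 and 67.2 FPKM in siCtrl samples 1 to 3, a log2 fold change of -1.51 ± 0.07 (SE, limma adjusted p = 1.5e-06). Of the 14 genes of that list 2 rose and 3 fell, and over the alternative settings 1 to 3 rose and 1 to 4 fell. CBY1, a partner of beta-catenin, was 14.3 ± 1.71 FPKM in siANP32B and 9.48 ± 1.59 FPKM in siCtrl (limma adjusted p = 0.00703), but not with siCtrl sample 1 as the only control (limma adjusted p = 0.176). The calls of TFEB, a lysosomal regulator (log2 fold change 0.45, limma adjusted p = 0.0256), and CRTC3, a CREB coactivator (-0.26, limma adjusted p = 0.0273), were each lost when any of 4 samples was left out, with limma adjusted p of up to 0.0867 for TFEB, without siANP32B sample 2, and 0.0933 for CRTC3, without siCtrl sample 3.

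Among 8 cytoskeletal and trafficking clients compared, 2 rose and 4 fell, and over the alternative settings 1 to 4 rose and 3 to 4 fell. ARHGEF2, the microtubule-bound activator of RhoA, was 238 ± 7.44 FPKM in siANP32B and 363 ± 6.51 FPKM in siCtrl (log2 fold change -0.61, limma adjusted p = 7.0e-06). SSH1, a cofilin phosphatase, and PPP1R12A, the targeting subunit of myosin phosphatase, fell by 0.76 and 0.44 (limma adjusted p = 2.9e-05 and 0.000501). KIF1C, a kinesin motor, was 104 ± 4.06 FPKM in siANP32B and 65.0 ± 3.74 FPKM in siCtrl (log2 fold change 0.67, limma adjusted p = 2.8e-05).

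Of 8 apoptosis and FOXO clients, 1 fell and 1 rose, and over the alternative settings 1 to 2 fell and 0 to 1 rose. MAP3K5, the stress kinase ASK1, was 5.45 ± 0.262 FPKM in siANP32B and 8.19 ± 0.458 FPKM in siCtrl (log2 fold change -0.51, limma adjusted p = 0.00272). BAX, a pore-forming killer protein, had a log2 fold change of 0.15 (limma adjusted p = 0.0334), a call lost when any of 4 samples was left out (highest limma adjusted p = 0.109, without siANP32B sample 3).

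In the list of 14 RAF, insulin and mTORC1 clients 1 gene rose and 1 fell, with a median log2 fold change of -0.00. This split depended on the processing, with 3 higher and 0 lower under median-of-ratios and under upper-quartile scaling, and 2 higher and 3 lower with limma-voom on recovered fragments. AKT1S1, which encodes the mTORC1 inhibitor PRAS40, was 33.5 ± 1.42 FPKM in siANP32B and 25.9 ± 1.73 FPKM in siCtrl (log2 fold change 0.36, limma adjusted p = 0.00228). KSR1, a RAF scaffold, had a log2 fold change of -0.34 (limma adjusted p = 0.0296), which was likewise lost when any of 4 samples was left out (highest limma adjusted p = 0.0996, without siCtrl sample 1).

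Kinases that phosphorylate the docking sites of clients were mostly not called, with 1 of 19 higher and 4 lower (1 to 2 higher and 3 to 5 lower over the alternative settings). PIM1 was 18.3 ± 1.54 FPKM in siANP32B and 32.7 ± 2.16 FPKM in siCtrl (log2 fold change -0.81, limma adjusted p = 6.9e-05). PRKAA1, the catalytic alpha subunit of AMPK, and CHEK1, the checkpoint kinase that phosphorylates CDC25 proteins, fell by 0.44 and 0.58 (limma adjusted p = 0.000147 and 0.000509). PRKD3, a protein kinase D, fell by 0.38 (limma adjusted p = 0.00442), but did not pass with siCtrl sample 1 as the only control (limma adjusted p = 0.110).

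Kinases that act on 14-3-3 proteins themselves were 4, of which CSNK1A1 (casein kinase 1 alpha) and MAPK9 (JNK2) fell. CSNK1A1 was 71.3 ± 2.71 FPKM in siANP32B and 92.1 ± 1.33 FPKM in siCtrl, and MAPK9 was 29.5 ± 1.13 FPKM in siANP32B and 38.2 ± 1.10 FPKM in siCtrl (log2 fold change -0.36 each, limma adjusted p = 0.000249 and 0.000842).

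SFN itself overlapped between the groups. Some of the genes listed as its regulators fell and none rose, and any link to the level of SFN was not tested. TRIM25, the ubiquitin ligase that marks sigma for degradation, was 102 ± 1.96 FPKM in siANP32B and 176 ± 0.853 FPKM in siCtrl (log2 fold change -0.78, limma adjusted p = 1.7e-06). BRCA1, which is known to induce SFN, was 13.4 ± 0.600 FPKM in siANP32B and 25.3 ± 2.06 FPKM in siCtrl (log2 fold change -0.86, limma adjusted p = 4.7e-05).

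**Figure D4:**
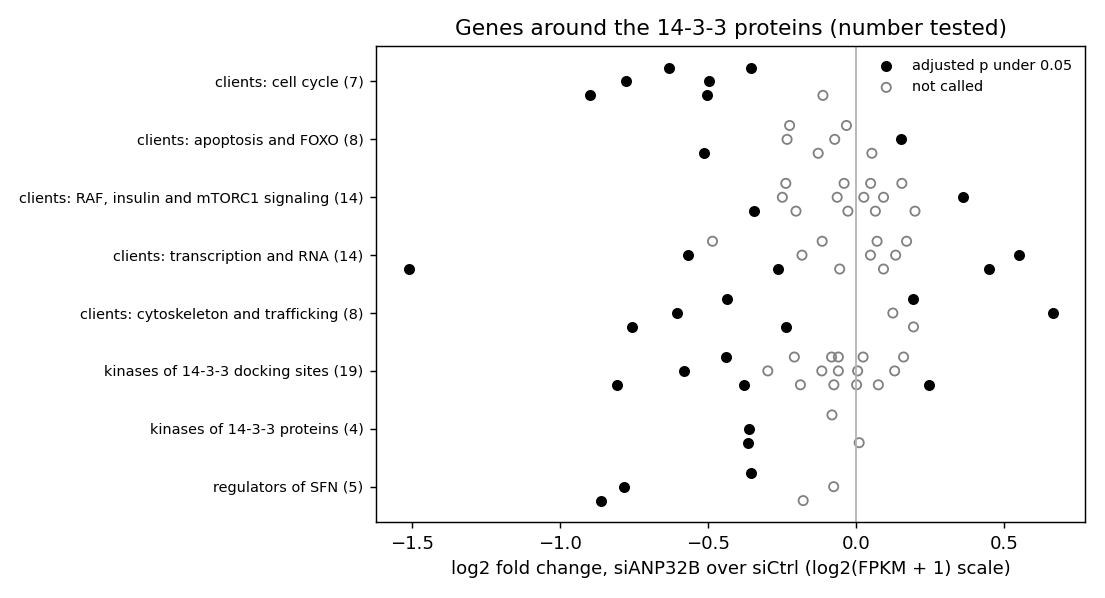
Log2 fold change, siANP32B over siCtrl, of each gene in the 8 lists of clients, kinases and regulators (rows, with the number compared), with genes at a limma adjusted p under 0.05 filled and the others open. Of 78 genes, 7 are called higher and 23 lower, beside 14.6% and 24.6% of all genes. Of the 7 cell cycle clients 6 are called lower, and WWTR1 is at -1.51.

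Over the 6 samples, the genes whose profile lay closest to YWHAZ were COPS8, PSAT1, KIF11, RAB8B and ARPP19. Likeness was the Euclidean distance between log2 levels relative to the siCtrl mean, over 6 samples and 8376 genes averaging 10 FPKM or more, and it was 0.072 for COPS8 and 0.130 for ARPP19. COPS8, a subunit of the COP9 signalosome, had 28.4, 24.3 and 26.8 FPKM in siANP32B samples 1 to 3, against 50.3, 54.4 and 52.0 FPKM in siCtrl samples 1 to 3. Like YWHAZ, it was lowest in siANP32B sample 2 and highest in siCtrl sample 2.

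Closest to YWHAQ were TXNRD1, AP4E1, JDP2, PHGDH and EIF4G1, at distances of 0.052 for TXNRD1 to 0.068 for EIF4G1. TXNRD1, a thioredoxin reductase, had 213, 203 and 220 FPKM in siANP32B samples 1 to 3, against 260, 264 and 271 FPKM in siCtrl samples 1 to 3. PSAT1, close to YWHAZ, and PHGDH, close to YWHAQ, encode consecutive enzymes of serine synthesis. As these genes were picked for their likeness over the same samples, their differences between the groups are a description only.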

How the data were processed

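RNA-seq values of 3 siANP32B and 3 siCtrl samples of RKO cells were analysed, grouped by the sample labels. The deposited values were FPKM per gene, made by the authors from their reads. GRCh38, Bowtie2, RSEM and DESeq2 are named in the submitters' processing notes. Tool versions, annotation release and strand handling: not given in the sources used here. FPKM was inferred as the unit because values of 100% of the 13945 genes compared were whole fragments at some whole gene length, within 0.002. Fragment numbers are the smallest that fit and could be too low by an integer factor, and counting errors derived from them cover counting only.

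limma 3.58.1 in R 4.3.3 was applied, with a trend, to log2(FPKM + 1) of genes averaging 1 FPKM or more, without a block, with Benjamini-Hochberg adjustment over all of them and a threshold of 0.05. This scale understates the change of low genes. The test was tested on simulated data. Alternatives were a pseudocount of 0.1, no filter, median-of-ratios and upper-quartile scaling, limma-voom on the recovered fragments, the replicate number as a block, siCtrl sample 1 as the only control (the lone sample is then assumed to vary like the others), and each sample left out in turn. Replicates of the same group had a chi-square per degree of freedom of 3.54 to 7.66 against each other, above sampling noise, so none was taken as a repeated library. The highest values, 7.66 and 6.65, were those of siCtrl sample 1 against siCtrl samples 2 and 3.

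The members, lists and tests were chosen with earlier results of these data known. Named genes were the 7 members, up to 4 called genes with the smallest p of each list, the neighbours, ANP32B, and the 5 genes most like YWHAZ and the 5 most like YWHAQ. A gene that this rule names is not reported here. Of the neighbours, those without a call are given by their range. Coordinates, transcripts and coding sequences come from GENCODE 29 on GRCh38, and promoters from RefSeq on GRCh38.p14. Proteins were translated from the coding sequences and aligned with Biopython 1.88. Other steps used Python 3.11.15 (pandas 2.3.3, numpy 2.4.6, matplotlib 3.10.9, scipy 1.17.1).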

Additional observations from a re-analysis of the deposited data

How the results depend on the processing

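Over all genes, siCtrl sample 1 as the only control gave 1209 higher and 1899 lower, beside 2031 and 3437 with all samples, and limma-voom on recovered fragments gave 2209 higher and 3833 lower. The number of client and enzyme genes called higher, 7 with all samples, was 4 without the filter, 4 with siCtrl sample 1 as the only control, 13 with median-of-ratios scaling, 13 with upper-quartile scaling and 4 to 7 with 1 sample left out. The summed FPKM of the 7 genes, 85.3% of siCtrl as deposited, was 89.5% with median-of-ratios scaling, 89.8% with upper-quartile scaling and 84.1% to 86.8% with 1 sample left out. The causes were not tested, beyond the smaller number of samples where some were left out. No value reversed its direction past the threshold. The replicate numbers did not pair the samples, as deviations of same-numbered samples correlated at 0.02, -0.01 and -0.00 and not every sample correlated best with its own number, and with the replicate block 2006 genes were called higher and 3310 lower.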
